A study of Mus musculus with 20 samples.

Results

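Acute pancreatitis begins when digestive enzymes become active inside the acinar cells that make them. Injured cells then switch on stress and inflammatory genes, and innate immune cells enter the tissue. Cerulein is an analogue of cholecystokinin, the hormone that makes acinar cells secrete, and repeated high doses of it bring on pancreatitis in mice. The microRNA miR-146a is induced by NF-kB, a transcription factor that drives inflammatory genes, and it dampens the same signalling by pairing with the mRNAs of the adaptor proteins TRAF6 and IRAK1. A loss of miR-146a is therefore commonly studied for its effect on how strongly inflammatory genes are induced. The title of the study names NF-kB and inflammasomes that contain ASC, an adaptor of the complexes that release interleukin-1 beta.

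Described here is the set of transcripts whose level after cerulein lay above PBS in every library, and how the genotypes compare within it. A row of the count table was a member if its lowest value among the 9 cerulein libraries exceeded its highest value among the 10 PBS libraries, in CPM (counts relative to the library total) scaled by TMM, a method that corrects library totals for differences in composition. The members were thus chosen by their measured levels. Rows among the 100 with the most counts, and 3 rows listed by number, were left out by the same rule. Of 15831 rows with enough counts to be tested, 233 lay above PBS in every cerulein library, 15 of which were among the 100 most abundant and 3 were the rows left out by number. Both exclusions applied to 2 of these rows, so 16 were left out in all. At a rate of 1.37% of the tested rows, 217 members remained. Rows in the opposite position, below PBS in every cerulein library, numbered 22 before any exclusion, beside the 233 above. A row with 0 counts in any PBS library cannot take that position, so nothing is read from the gap.

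Pancreas was taken from wild-type mice (WT) and from miR146a knockout mice (KO), which were littermates of 6 to 8 weeks. The mice received an hourly intraperitoneal injection, 7 in all, of cerulein at 50 µg/kg or of 50 µl PBS, and were killed 1 h after the last. The 4 groups were labelled with 5 replicates each, without a statement that each is 1 mouse, so p-values measure the spread between these samples. WT cerulein replicate 2 held 0 in every row and was left out, which leaves 5 WT PBS, 5 KO PBS, 4 WT cerulein and 5 KO cerulein libraries. The sources used here do not describe the KO allele further or give the sex. Cell type markers could not be looked up, because the table does not pair its rows with gene names or identifiers. Members are therefore given by row number, counted from 1 below the header, and 4 are named. The role of a member in the pathways above cannot be stated.

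The knocked-out microRNA, which joins all comparisons of genotype below, has the following mature sequence in RefSeq (chr11:43374435-43374456, minus strand, GRCm38.p6). The capitals mark the seed, bases 2 to 8 from the 5′ end, which pairs with target mRNAs. Whether any member holds a matching site was not tested.
mmu-miR-146a-5p: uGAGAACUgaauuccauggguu

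Depth was uneven. Totals ran from 806076 to 36347215 counts, and 4 PBS libraries, replicates 1 and 2 of each genotype, lay under 2000000. A total of 3 counts, taken as the floor of detection, equals 2.44 CPM in the shallowest PBS library and 0.165 CPM in the deepest. In 12 of 19 libraries some count between 4 and 30 was held by more rows than a count of 2, and reads carry no molecular identifiers, so floors cover counting error only. There were 3 libraries that stood apart from their groups across the 15831 tested rows. WT PBS replicate 4 had a Spearman correlation of 0.895 with KO cerulein replicate 1 and 0.890 with KO cerulein replicate 4, against at most 0.807 with its own group. Those 2 KO cerulein libraries reached 0.972 with each other and 0.851 to 0.870 with the other 3 of their group. These are descriptions across rows, which are not independent.

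Most members cleared the rule narrowly, and a minority by a wide margin. In the 207 members with any PBS counts, the lowest cerulein value was a median of 1.17 times the highest PBS value (interquartile range 1.07 to 1.42), and 70 members had a ratio under 1.1. At the edge of the rule, the nearest member inside had 34.33 CPM in its lowest cerulein library against 34.32 CPM in its highest PBS library, and the next had 110.2 against 110.0 CPM. The nearest row outside had 122.5 CPM on both sides with a ratio of 0.9999, and the next had 60.82 against 60.83 CPM. A ratio of at least 2 was reached by 21 members, up to 37.0, and 10 further members had 0 counts in all PBS libraries. Members near the edge thus hold values like those of rows that missed it.

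The highest PBS value and the lowest cerulein value rested on unequal depth. Over the members, the median count behind the lowest cerulein value was 1249, and behind the highest PBS value 120. The PBS maximum rested on at most 10 counts in 28 members, which include the 10 with 0 counts in all PBS libraries. The cerulein minimum rested on at most 10 counts in 2 members, the least being 3. For 14 members the lowest cerulein value was under the 2.44 CPM that 3 counts are worth in the shallowest PBS library, so in that library a level equal to it would have given fewer than 3 counts. Which PBS library held the maximum varied. It was KO PBS replicate 1 for 43 members, KO PBS replicate 4 for 40 and WT PBS replicate 4 for 29. WT PBS replicate 1 was given 28, which include the 10 members at 0 in all PBS libraries, placed there as the first library. KO PBS replicate 1 is the shallowest library and KO PBS replicate 4 the deepest.

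**Figure D1:**
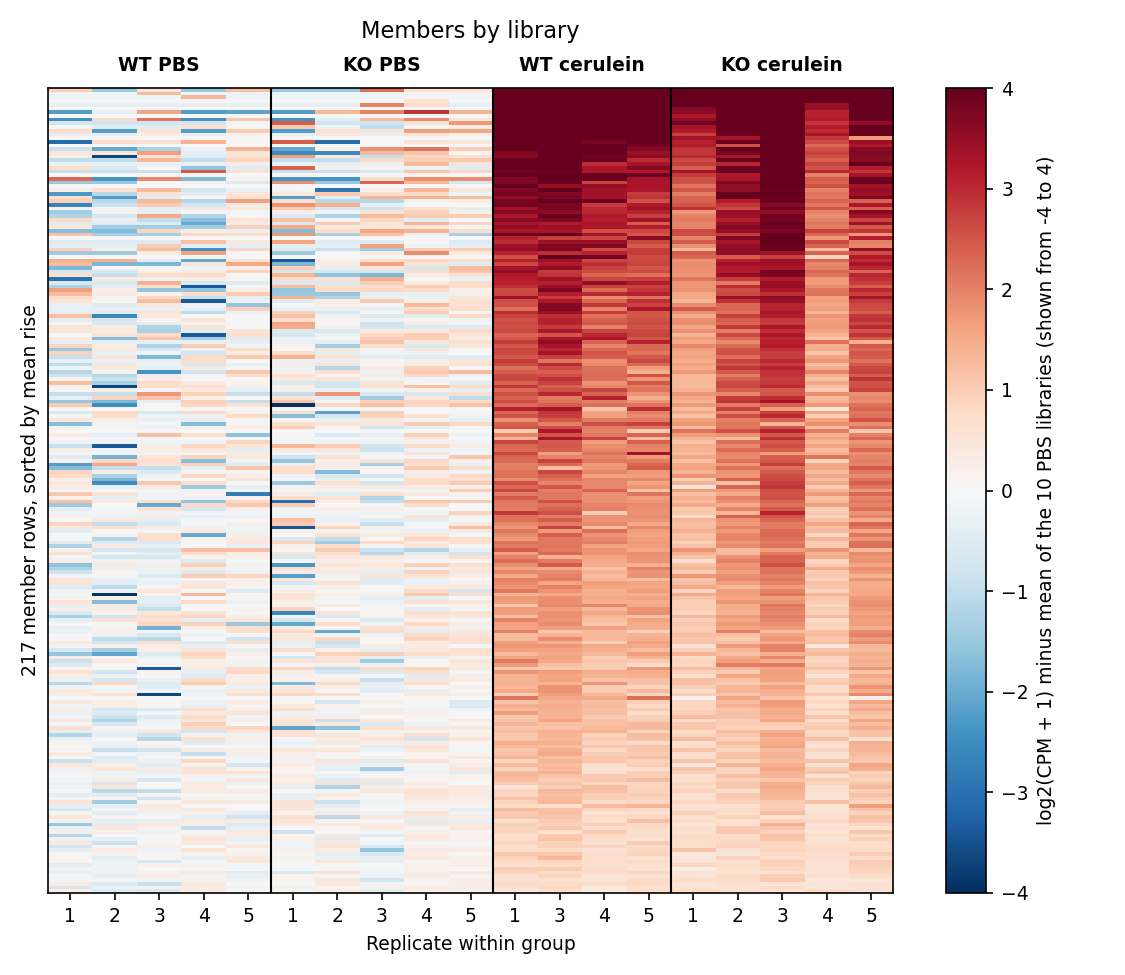
Each line is 1 of the 217 members and each column 1 library, with colour giving log2(CPM + 1) minus the member's mean over the 10 PBS libraries, sorted by the mean rise. The rule makes every cerulein column warmer than PBS. Within the KO cerulein columns, replicates 1 and 4 are paler than replicates 2, 3 and 5.

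Mean cerulein levels of the members ran from 1.57 to 839 CPM with a median of 76.9 CPM. CPM is not corrected for transcript length, so members cannot be ranked against each other by it. By the ratio of mean levels, 30 members were under 2-fold higher after cerulein, 87 were 2 to 4-fold higher, 47 were 4 to 8-fold higher and 43 over 8-fold higher, beside the 10 with no PBS counts. The mean cerulein level had a median of 120 CPM in the first of these bands, 109 in the second, 75.7 in the third and 32.1 in the fourth, and of 9.75 CPM in the members without PBS counts. In bulk tissue, more cells of a type and more RNA per cell cannot be told apart, and likewise fewer cells and less RNA per cell. Members lay across the whole table, and 5 pairs followed each other with no tested row between, of which 1 pair was in adjoining rows. Neighbouring rows may share reads, since how overlapping genes were counted is not stated in the sources at hand.

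The fitted response was positive for every member in both genotypes and varied widely in size. In WT the log2 fold change of the members had a median of 2.05 (interquartile range 1.30 to 3.35, lowest 0.61), and in KO 1.75 (1.14 to 2.67, lowest 0.43). Over all tested rows the medians were -0.10 and 0.06. Placing the 17 members with 0 counts in all WT PBS libraries and the 10 in KO at a bound of 3 counts over the group left both medians unchanged to 2 decimals. A median cannot move while the replaced values stay on the same side of it, so nothing is read from this. With edgeR's quasi-likelihood test at an adjusted p under 0.05, 182 of 217 members were called higher in WT, where 4.27% of all tested rows were, and 118 in KO, where 1.35% were. Both called 113, 69 were called in WT alone, 5 in KO alone and 30 in neither. This contrast chose the members, so nothing is read from these counts, and the numbers called alone do not show a difference between genotypes.

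Ranked by margin, the members farthest from PBS had no PBS reads at all, but their margin was measured differently. It was taken against 3 counts over all PBS libraries, or 0.0522 CPM, and in other members against the single highest PBS library. The largest ratio in a member with PBS counts, 37.0, is therefore not comparable with the margins below. Row 16777, which had the widest margin, had 0 counts in each of the 10 PBS libraries. After cerulein it stood at 48.2, 55.2, 37.0 and 15.7 CPM in WT replicates 1, 3, 4 and 5, and at 12.0, 27.2, 44.1, 10.1 and 31.6 CPM in KO replicates 1 to 5. Its lowest cerulein value, in KO replicate 4, was at least 193-fold higher than 3 counts over all PBS libraries. WT replicates 4 and 5 lay within the KO range, so the genotypes overlapped. The means were 39.0 CPM ± 17.3 (SD, n = 4) in WT and 25.01 ± 14.2 (SD, n = 5) in KO, which gave -0.64 as the log2 fold change of KO against WT (SE 0.54, adjusted p = 1 by edgeR). That value ran from -0.42, without WT replicate 3, to -0.95, without KO replicate 3, and was -0.17 without the 3 libraries that stood apart.

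Row 2569 had the next widest margin, also with 0 counts in all PBS libraries. It stood at 29.5, 49.2, 43.8 and 34.0 CPM in replicates 1, 3, 4 and 5 of WT cerulein, and at 8.49, 15.8, 49.8, 7.70 and 21.6 CPM in KO replicates 1 to 5. The lowest of these was at least 148-fold higher than 3 counts over all PBS libraries. In KO, 4 of 5 libraries lay below every WT library, while replicate 3 lay above all of them. The group means of 39.1 CPM ± 8.99 (SD, n = 4) and 20.7 ± 17.2 (SD, n = 5) gave a log2 fold change of -0.92 (SE 0.57, adjusted p = 1 by edgeR). That value was -1.55 without KO replicate 3 and -0.41 without the 3 libraries that stood apart. Neither difference between genotypes exceeded the spread between libraries by this test.

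**Figure D2:**
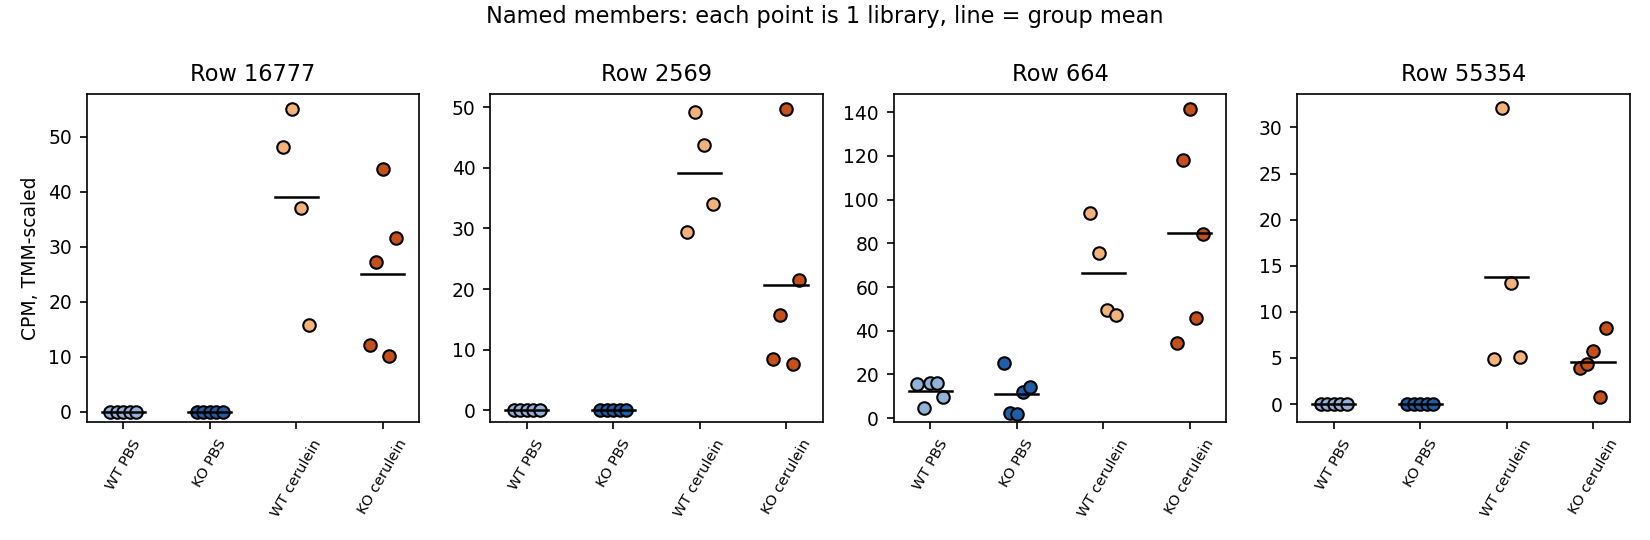
CPM of the 4 named members in each library, with a line at each group mean. Rows 16777, 2569 and 55354 sit at 0 in all PBS libraries, row 664 has PBS values up to 25.3 CPM, and the genotypes overlap after cerulein in all 4 rows.

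Members tended to be slightly lower in KO than in WT after cerulein, but no member passed the test. The rule did not use genotype, but it used the same cerulein values and so bears on their spread. The question it answers is whether loss of miR146a changes the level that the shared cerulein transcripts reach. By edgeR, 0 of 217 members were called, 0 had an unadjusted p under 0.05, and DESeq2 also called 0, beside 0.138% of all rows to which it gave an adjusted p. Of all 15831 tested rows 0% were called, and 4.11% had an unadjusted p under 0.05. The members' log2 differences had a median of -0.16 (interquartile range -0.35 to -0.04) beside 0.05 over all rows, and 172 members (79.3%) were negative against 45.5% of all rows. The range was -1.70 to 0.35, and 7 members differed by over 1 on the log2 scale, all lower in KO. The share beyond that size was 3.23% in members and 16.0% in all rows. Nothing is read from that gap, because the rule keeps out rows that vary widely within cerulein.

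The most extreme members in this contrast overlapped between genotypes. Row 55354 had the most negative difference among members with a mean of at least 5 CPM. It held 0 counts in all PBS libraries, and 4.85, 32.1, 13.2 and 5.08 CPM in replicates 1, 3, 4 and 5 of WT cerulein. KO replicates 1 to 5 stood at 3.92, 4.31, 5.71, 0.818 and 8.26 CPM. WT replicates 3 and 4 lay above all KO libraries, and the other WT libraries lay among them. The means were 13.8 CPM ± 12.8 (SD, n = 4) in WT and 4.60 ± 2.71 (SD, n = 5) in KO, and the log2 fold change was -1.59 (SE 0.94, adjusted p = 1 by edgeR), or -0.74 without WT replicate 3 and -1.18 without the 3 libraries that stood apart.

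Row 664 had the largest positive difference. After PBS it stood at 15.8, 4.54, 15.9, 16.3 and 9.48 CPM in WT replicates 1 to 5 and at 25.3, 2.39, 2.03, 12.1 and 14.1 CPM in KO. After cerulein it was at 94.0, 75.6, 49.7 and 47.2 CPM in WT replicates 1, 3, 4 and 5, and at 34.5, 118, 142, 45.8 and 84.2 CPM in KO replicates 1 to 5. KO libraries held both the lowest and the highest of the cerulein values. Its log2 difference between genotypes was 0.35 (SE 0.53, adjusted p = 1 by edgeR) after cerulein, and ran from 0.08, without KO replicate 3, to 0.56, without WT replicate 1. It was 0.80 without the 3 libraries that stood apart, and 0.60 with replicate number as a block. The difference between the responses was 0.54 (SE 0.76, edgeR adjusted p = 0.909).

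**Figure D3:**
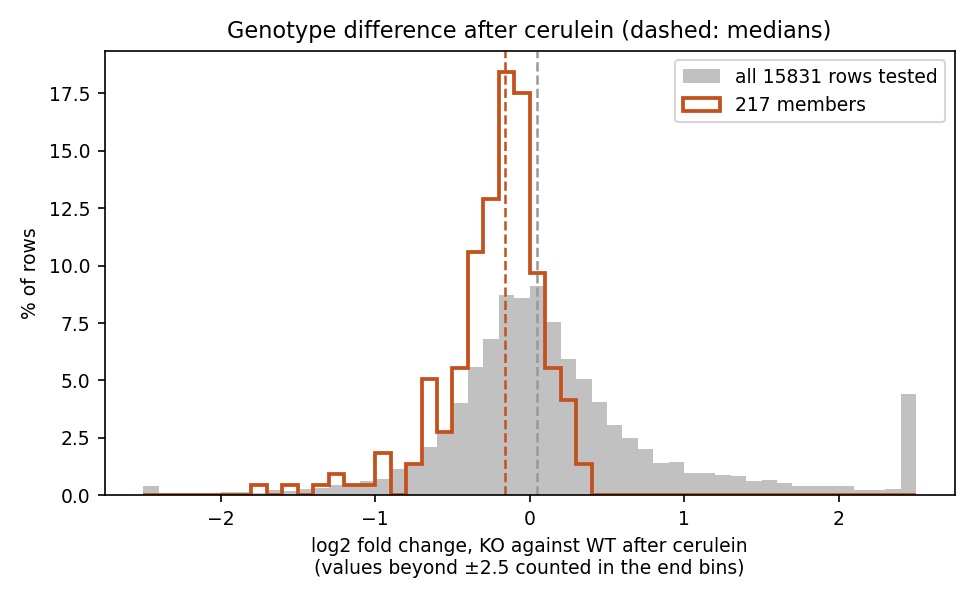
Distribution of the log2 fold change of KO against WT after cerulein, as a percent of rows, for the 217 members (outline) and all 15831 tested rows (grey), with dashed medians at -0.16 and 0.05. The members' median lies left of 0, and their narrower spread is bound up with how they were chosen.

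The direction of that median depended on KO cerulein replicates 1 and 4. Member levels on the log2(CPM + 1) scale had a library median of 6.43, 6.69, 6.23 and 6.15 in replicates 1, 3, 4 and 5 of WT cerulein. In KO cerulein they were 5.77, 6.39, 6.85, 5.71 and 6.37 in replicates 1 to 5. The KO libraries thus spanned a wider range than WT and lay on both sides of it, with means of 6.22 ± 0.47 (SD, n = 5) and 6.38 ± 0.24 (SD, n = 4). KO replicate 4 held the lowest cerulein value of 101 members and replicate 1 that of 65, together 166 of 217 or 76.5%, where these libraries held the minimum of 20.5% of all tested rows. In 134 members (61.8%, against 11.8% of all rows) both lay below all 7 other cerulein libraries. The highest value fell in WT or KO replicate 3 for 164 members (75.6%, against 17.6%).

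Without WT PBS replicate 4 and KO cerulein replicates 1 and 4, the libraries that stood apart, the members' median difference after cerulein turned to 0.08, beside 0.01 over all rows, and 75 members were negative instead of 172. Leaving out KO cerulein replicate 3, where members were highest, gave -0.32 with 195 negative. The median was -0.076 without KO replicate 1, -0.070 without KO replicate 4 and -0.087 without WT replicate 3. No member was called in any of these fits. Replicates 1 and 4 also had the largest totals of the KO cerulein group, 23746372 and 35155403 counts, and the most rows detected, 23354 and 20308. Their part in the result was not tested beyond leaving them out.

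**Figure D4:**
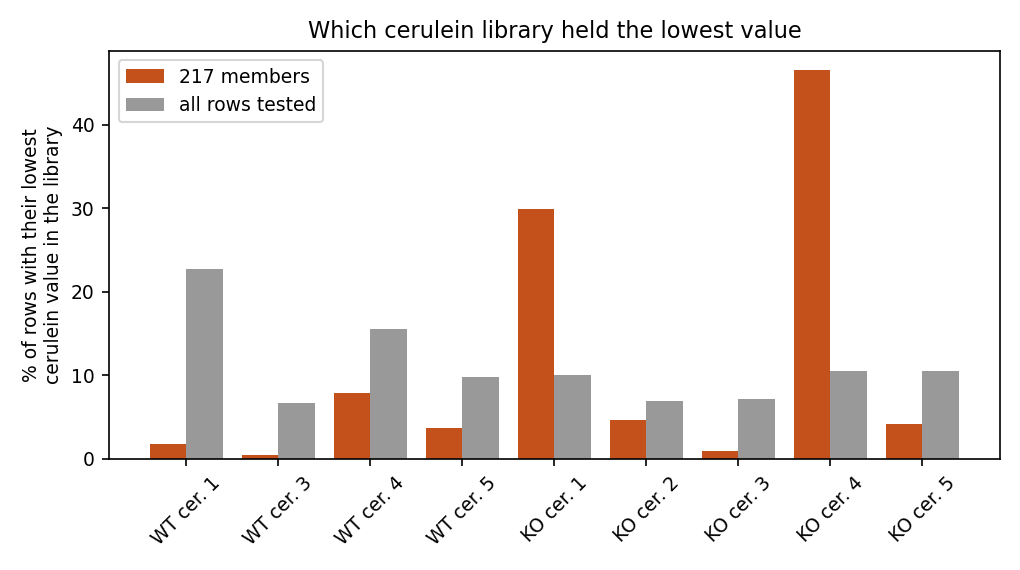
Percent of rows whose lowest cerulein value lay in each of the 9 cerulein libraries, for the 217 members and for all tested rows. KO replicates 1 and 4 hold the minimum of 29.95% and 46.5% of members, against 10.01% and 10.5% of all rows.

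The scaling of libraries moved this pattern as well. TMM gave KO cerulein replicates 1 and 4 factors of 1.27 and 1.33, and the other cerulein libraries 0.745 to 1.03. With library totals alone, the member medians of those 2 libraries were 6.12 and 6.11, within the range of 6.09 to 6.43 of the other 7. On that scale they held the minimum of 77 members (35.5%) against 7.26% of all rows. The members were still those chosen with TMM, and 90 of them met the rule with library totals. Library totals also moved the median difference of all rows after cerulein from 0.05 to 0.21. Relative to all rows, the members' median was -0.21 with TMM, -0.20 with RLE scaling and -0.29 with totals, and 0.07 without the 3 libraries that stood apart.

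As a share of raw counts, the members made up a similar part of the cerulein libraries of both genotypes. They held 2.76%, 2.84%, 2.36% and 2.71% of counts in WT replicates 1, 3, 4 and 5, and 2.35%, 2.43%, 2.80%, 2.32% and 2.48% in KO replicates 1 to 5. The means were 2.67% ± 0.213 (SD, n = 4) and 2.48% ± 0.191 (SD, n = 5), and the ranges overlapped. After PBS the share was 1.38%, 0.846%, 0.511%, 1.73% and 1.31% in WT replicates 1 to 5 and 1.502%, 0.890%, 0.589%, 0.492% and 0.692% in KO. No PBS library reached the lowest cerulein share. The rule set each member's scaled CPM higher in every cerulein library than in any PBS library, so this gap is bound up with it. Over all libraries the members held 1.89% of counts.

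**Figure D5:**
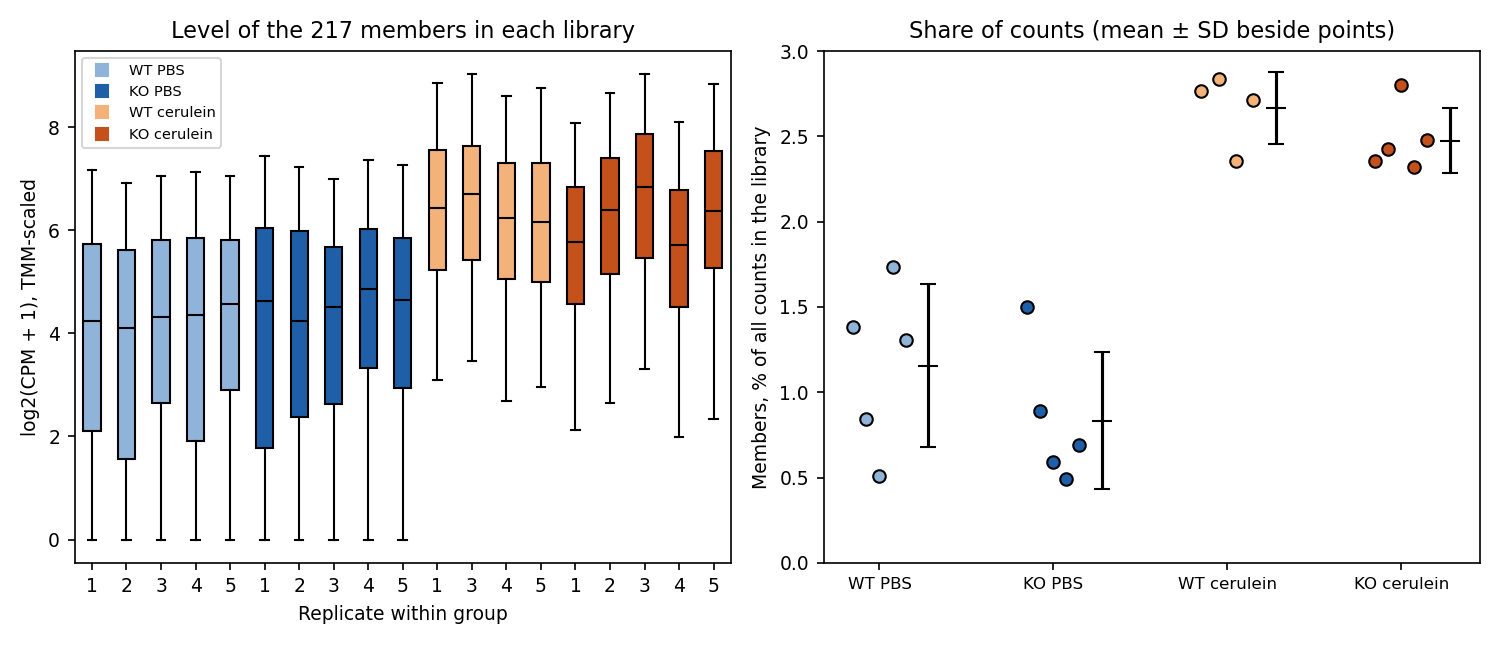
Left, log2(CPM + 1) of the 217 members in each library, with boxes for quartiles and whiskers from the 5th to the 95th percentile. Right, members as a percent of all counts per library, with mean ± SD, where cerulein libraries lie between 2.32% and 2.84% and PBS libraries between 0.492% and 1.73%. The gap between treatments is bound up with how the members were chosen.

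Fold size and genotype difference went together across bands of members. The median log2 difference of KO against WT after cerulein was -0.03 in members under 2-fold, -0.12 at 2 to 4-fold, -0.22 at 4 to 8-fold, -0.41 above 8-fold and -1.05 in the 10 members without PBS counts. Negative values were held by 19 of 30, 69 of 87, 39 of 47, 37 of 43 and 8 of 10 members. With library totals the medians kept this order, at 0.10, -0.04, -0.19, -0.35 and -1.06. Without the 3 libraries that stood apart they were 0.04, 0.13, 0.14, 0.05 and -0.52, so the order did not hold there. The bands were set after the values were seen, and no test was made between them.

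After PBS the members leaned the other way, with higher levels in KO. No member passed by edgeR, as 0 of 217 were called, where 0.0126% of all tested rows were. By the same test 20 had an unadjusted p under 0.05, of which 19 were higher in KO. DESeq2 called 2 members higher in KO, with adjusted p = 0.0301 and 0.0359 where edgeR gave 0.272 and 0.367. DESeq2 called 0.538% of all rows it gave an adjusted p in this contrast, in either direction. The 20 members with an unadjusted edgeR p under 0.05 made up 9.22%, close to the 8.85% of all rows in either direction. That total says nothing particular about the members. By direction, 829 of the 15831 tested rows were higher in KO and 572 lower, beside 19 and 1 of the members, and this lean was not tested. The median log2 difference was 0.15 (interquartile range -0.01 to 0.47) beside -0.00 over all rows. Of the members 151 were positive and 56 negative, the other 10 having no PBS counts, while 49.7% of all rows were positive. Library medians of log2(CPM + 1) were 4.23, 4.10, 4.31, 4.36 and 4.57 in the WT PBS libraries 1 to 5 and 4.62, 4.24, 4.51, 4.85 and 4.65 in KO. The groups overlapped, with means of 4.32 ± 0.17 and 4.57 ± 0.23 (SD, n = 5 each).

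Library totals turned the sign of that value, but not its position relative to other rows. With library totals the members' median after PBS was -0.48, while that of all rows moved to -0.68, so the members still lay 0.20 above. With TMM they lay 0.15 above. Leaving out the 4 libraries under 2000000 counts gave a median of 0.09, with 77 members negative. With single libraries left out it ran from 0.10, without WT PBS replicate 2, to 0.20, without KO PBS replicate 2.

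In 4 members every KO PBS library lay above every WT PBS library (1.84% of members, against 0.48% of all tested rows), and in 0 members every one lay below (against 0.417%). Their values were noted after they were seen. The first had 74.2, 68.6, 56.5, 82.0 and 58.7 CPM in KO PBS replicates 1 to 5, against 21.1, 37.6, 29.1, 54.6 and 42.1 CPM in WT. The second had 83.9, 110, 64.3, 117 and 98.4 CPM in KO and 62.6, 29.8, 28.03, 57.6 and 34.6 CPM in WT, or 1.16 as a log2 fold change (SE 0.28, adjusted p = 0.272 by edgeR), the smallest adjusted p among members in this contrast. The gap between groups was narrow in both, since the highest WT library came within 2 CPM of the lowest KO library. The third had 3.48 to 5.34 CPM in KO and 0 to 2.54 CPM in WT, and the fourth 14.5 to 22.8 CPM in KO and 0 to 14.5 CPM in WT. None of the 4 passed with edgeR (adjusted p from 0.272 to 0.506). DESeq2 called the second of them (DESeq2 adjusted p = 0.0301) and not the others.

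After cerulein, 0 members lay without overlap above WT (1.28% of all tested rows did) and 1 lay below (0.461% of members, against 0.802%). That member had 97.8, 108, 98.3, 97.8 and 105 CPM in KO replicates 1 to 5 and 115, 117, 112 and 120 CPM in WT replicates 1, 3, 4 and 5. Its log2 difference was -0.20 (SE 0.25, edgeR adjusted p = 1), small beside its level and steady over the libraries. The share of members is below that of all rows. Without KO cerulein replicate 3 the number below was 16 (7.37% of members, against 2.06% of all rows tested in that set).

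Counts of 0 after PBS were unevenly spread between genotypes. In all, 7 members had 0 counts in all 5 WT PBS libraries and some in KO PBS, and 0 members had the reverse. The same count was not made over all tested rows, so nothing particular to the members is read from it. Those 7 held 92 KO PBS counts together, from 2 to 34 each, of which 50 lay in KO PBS replicate 4, the deepest library. Only that library held counts in 3 of the 7. Total depth was 21762698 counts over WT PBS and 52573084 over KO PBS, so a low level was more easily detected in KO, and its part in this pattern was not tested.

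The response to cerulein was smaller in KO for most members in the fitted values, though no single difference passed by edgeR. The interaction (response in KO less that in WT) had a median log2 value of -0.34 (interquartile range -0.72 to -0.08) over members and 0.04 over all rows, and 175 of 217 were negative against 47.9% of all rows. By edgeR 0 members were called, where 0.00632% of all tested rows were. An unadjusted edgeR p under 0.05 was held by 14 members, all negative, or 6.45%, beside 9.20% of all rows in either direction. Of the 15831 tested rows, 439 had such a p with a negative value and 1018 with a positive one, so the 2 shares are not alike. DESeq2 called 2 members as smaller in KO, both with few PBS counts in WT, at 0 and 8 counts over the group against 34 and 71 in KO (DESeq2 adjusted p = 0.0368 and 0.0446, edgeR adjusted p = 0.308 for both). It called 0.698% of all rows with an adjusted p in either direction, and gave 2 members none. Their WT and KO means were 62.2 and 38.3 CPM after cerulein in the first, and 53.4 and 26.1 CPM in the second.

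The negative interaction combined differences in both treatments. In 119 members (54.8%, against 26.6% of all rows) the fitted value was lower in KO after cerulein and higher in KO after PBS. Without the 3 libraries that stood apart the median interaction was -0.12, beside -0.04 over all rows, and 133 members were negative. When the 4 shallow libraries were left out as well it was -0.07 beside -0.06, and 120 were negative. With library totals the median was 0.43, while all rows moved to 0.89, so the members lay 0.46 below the rest on that scale and 0.38 below with TMM.

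Within cerulein, how far the members varied together, beside all rows, depended on the scaling. On the log2(CPM + 1) scale with TMM, the first principal component of the 9 cerulein libraries held 67.6% of the members' variance around their means, against 40.7% over all tested rows. With library totals the figures were 40.6% and 51.9%, so the order turned with the scaling. The median SD of a member's log2 level was 0.31 in WT cerulein and 0.52 in KO cerulein, where all rows had 0.46 and 0.51. After PBS it was 0.57 in WT and 0.48 in KO, where all rows had 0.91 and 0.84. A row with a wide spread in either treatment is less likely to meet the rule, so the lower spread of members is partly set by how they were chosen. In KO cerulein alone the members were not less variable than all rows.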

How the data were processed

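The authors deposited 1 table of raw counts, with 57126 rows and a column per library, matched to samples by library name. The tools STAR and fastp, and build GRCm39, are named per the submitters' processing notes. The counter, the annotation and whether strand was used were not given in the sources used here. Rows could not be matched to the reference tables.

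Counts were analysed in R 4.3.3 with edgeR 4.0.16: filterByExpr (minimum 10 counts, total 15), TMM scaling, and quasi-likelihood fits of 4 group means over 19 libraries. Benjamini-Hochberg adjustment ran over all 15831 rows tested, and a row was called at an adjusted p under 0.05. Each standard error is the log2 fold change over the root of its F statistic. Log2 levels use CPM + 1. DESeq2 1.42.0, RLE scaling, library totals, other filters and left-out libraries were alternatives. The procedure was tested on simulated data, in which each row had a shared mean over the groups apart from known changes. The outcome is not given here, so the numbers called come without a limit of detection.

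The members and tests were chosen with earlier results of these data known. Named rows include the 2 with the widest margin, which is the ratio of lowest cerulein to highest PBS value in members with PBS counts. Both lack PBS counts, so their margin is the lowest cerulein value over that of 3 counts in all PBS libraries together. The other named rows have the largest positive and negative KO against WT difference after cerulein among members with a mean of at least 5 CPM.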

Additional observations from a re-analysis of the deposited data

How the results depend on the processing

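Membership depended on the processing. The rule found 144 rows with RLE scaling (142 of them members), 176 with library totals (90 of them members) and 252 without a filter. It found 493 without the 4 libraries under 2000000 counts and 628 without the 3 that stand apart. Leaving out 1 library gave 204 to 309. Each such set was also filtered and scaled anew.

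With the members fixed, edgeR called 0 of those tested between genotypes under each edgeR alternative. A fit of only the groups compared tested 176 members after PBS and gave no interaction. DESeq2 called 2 after PBS and 2 in the interaction, beside 0.538% and 0.698% of all rows with an adjusted p. With library totals, the median difference was -0.48 after PBS and 0.43 in the interaction. Members without overlap above WT after cerulein numbered 6 without the 3 libraries that stand apart (2.76%, against 2.94% of all rows), 9 without the 4 shallow libraries as well (4.15%, against 2.79%), and 0 to 1 with single libraries left out. Those below numbered 2 with library totals (0.922%, against 0.562%) and 1 to 16 with single libraries left out, the highest without KO cerulein replicate 3 (7.37%, against 2.06%). The cause of these changes was not tested.

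Replicate numbers are shared between groups, but not every same-numbered pair deviated together. Of 27 pairs, 7 had a correlation of deviations over 0.1 (range -0.29 to 0.49), 4 of them among the 6 pairs of replicate 3, so the numbers were not taken to pair the libraries. With the replicate block, the members' median after cerulein was -0.19, and 0 members were called. Library totals and the fit without both sets of libraries were added after the data were seen. In the PBS groups depth limits what can be detected.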
